A study of Mus musculus with 6 samples.

Results

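The genes studied here, 10 in number, mark natural killer cells and the granules of cytotoxic lymphocytes, and were followed through 6 arrays of mouse lung cells. They are the receptor genes Klrd1, Klrk1, Klre1, Klrg1 and Ncr1 and the granule genes Prf1, Gzma, Gzmb, Ctsw and Nkg7, 10 of 18193 genes on the array. They were chosen by name, with their higher signals in adult arrays already known, so the difference between the groups is given for them as a description and without a test. The E18 group held 3 samples of Muc1+/Pdpn+ cells from lungs at embryonic day 18, the bipotent progenitor population of the series. The adult group held 3 samples of Lyz2+/EpCAM+ cells from adult lungs, its alveolar type II population. The E18 cells were purified by flow sorting, the adult cells are labelled only as isolated, and each group is labelled as biological replicates. Age and cell population differ together. Strain, sex, adult age, genotype and any pooling of animals are not given in the sources used here. Beyond these marker names and the sorting of the E18 cells, no label describes a step that kept or removed lymphocytes. Lyz2 is also a gene of macrophages and neutrophils.

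Natural killer (NK) cells and CD8 T cells kill target cells by releasing granules onto them. Perforin, encoded by Prf1, opens membranes, and granzymes, the serine proteases encoded by Gzma and Gzmb, enter the target and cleave its proteins. Whether a granule is released depends on surface receptors that read the target, among them CD94 (Klrd1), which pairs with NKG2 chains and binds the class Ib molecule Qa-1, and NKG2D (Klrk1), which binds stress-induced ligands. Most of these genes are shared between NK cells and T cells, and Ncr1, which encodes NKp46, is the most restricted to NK cells and other innate lymphoid cells. The adult lung holds a large resident and circulating pool of NK cells.

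All 10 genes are in the RefSeq table of the mouse assembly GRCm38.p6, where 4 of them, all lectin-like receptor genes, lie on chromosome 6. Klre1, Klrd1 and Klrk1 follow one another there with no other protein-coding gene between them, and Gzma lies beside Gzmk on chromosome 13. RefSeq promoter windows were at hand for 7 of the 10 genes, and the 250 bases before the start were searched for the core of the motif bound by RUNX factors, TGTGGT or, on the other strand, ACCACA. RUNX factors act in NK cells and CD8 T cells, but the motif was chosen after the sequences had been seen. The windows of a pair of receptor genes and of both granzyme genes are printed 5′ to 3′ on the strand of the gene, with each match in capitals.
Klrk1 (chr6:129623865-129624114, minus strand): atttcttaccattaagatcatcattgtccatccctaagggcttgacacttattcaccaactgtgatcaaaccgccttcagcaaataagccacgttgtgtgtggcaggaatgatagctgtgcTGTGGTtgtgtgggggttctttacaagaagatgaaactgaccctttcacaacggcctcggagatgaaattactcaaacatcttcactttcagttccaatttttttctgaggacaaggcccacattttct
Ncr1 (chr7:4337465-4337714, plus strand): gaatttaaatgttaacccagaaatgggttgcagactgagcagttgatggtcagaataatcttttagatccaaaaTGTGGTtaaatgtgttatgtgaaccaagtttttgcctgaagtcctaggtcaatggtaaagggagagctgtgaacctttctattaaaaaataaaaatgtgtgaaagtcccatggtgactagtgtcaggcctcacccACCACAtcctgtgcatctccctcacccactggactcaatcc
Gzma (chr13:113100982-113101231, minus strand): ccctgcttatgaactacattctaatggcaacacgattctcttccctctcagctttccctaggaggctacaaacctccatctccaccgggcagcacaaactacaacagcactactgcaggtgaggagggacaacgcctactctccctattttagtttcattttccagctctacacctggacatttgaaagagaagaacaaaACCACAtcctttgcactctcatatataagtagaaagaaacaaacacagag
Gzmb (chr14:56262335-56262584, minus strand): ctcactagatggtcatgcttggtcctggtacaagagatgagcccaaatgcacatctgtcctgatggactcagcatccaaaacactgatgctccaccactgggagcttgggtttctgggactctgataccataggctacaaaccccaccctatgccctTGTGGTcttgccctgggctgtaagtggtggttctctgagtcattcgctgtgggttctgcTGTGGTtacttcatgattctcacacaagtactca
The match in Gzma began 50 bases before the start and that nearest the start in Gzmb began 34 bases before it. In Ncr1 the matches began 176 and 41 bases before the start, and in Klrk1 the match began 129 bases before it. Prf1, Nkg7 and Klre1 had a match each that began 130, 83 and 229 bases before the start.

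With the first listed window of each gene, the RUNX core was present in all 7 promoters at hand. Klre1 has a second listed window, which held 0 RUNX matches and 1 T-box match, so both counts depend on the window used. It was present in 26 of 79 promoters (32.9%) of other NK and cytotoxic lymphocyte genes, and in 3832 of 27025 promoters (14.2%) in the whole table, with the first listed window of each gene used. Among 134 promoters of other genes that were higher in the adult arrays it was present in 18 (13.4%). Other motifs bound by factors of these cells were searched in the same way on both strands. The T-box core TCACAC, the motif of T-bet and eomesodermin, was present in 3 of the 7 promoters (Ncr1, Gzmb and Nkg7) and in 12.2% of the whole table. The STAT motif TTCNNNGAA was present in 1 of the 7, that of Nkg7, and in 7.18% of the whole table. The RUNX variant TGCGGT was present in 0 of the 7 and in 5.06% of the whole table. Matches of different motifs may share bases. The motifs were chosen after the sequences had been seen, and a match is only a run of letters in the window.

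**Figure D1:**
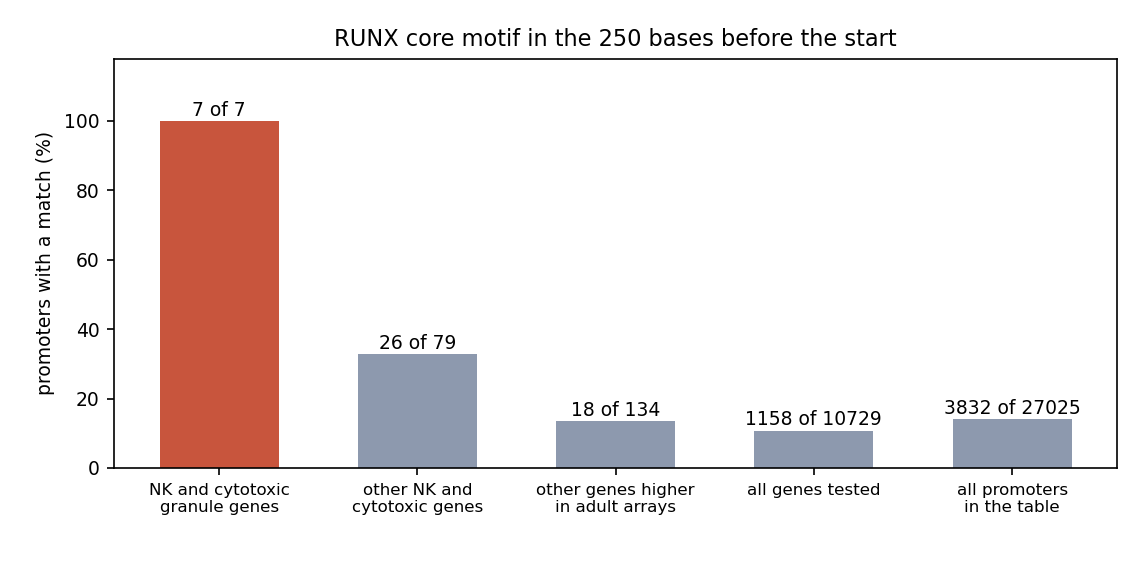
Percent of promoters with the RUNX core motif on either strand in the 250 bases before the start (vertical axis), for the 7 promoters of the NK and granule genes and for 4 comparison sets, with counts above the bars. The bar of the NK and granule genes stands at 7 of 7 and that of all promoters at 3832 of 27025. The motif was chosen after the sequences had been seen, so the bars are a description.

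Values are log2 of the deposited signal, which the authors had scaled to the same trimmed mean on each array, so a difference of 1 is 2-fold. They compare arrays for 1 gene and are not comparable between genes. A detection floor was set at the 40th percentile of each array, which lay between 5.40 and 6.10. The floor ranks probe sets of an array and measures no background. Arrays give no counting depth, and the number of arrays limits the precision. Of 45101 probe sets the median signal was between 70.2 and 112 per array. The third arrays of both groups carried higher poly-A spike-in signals, with a mean of 13.57 and 14.08 against 6.65 to 9.42 on the other 4. Adult replicate 1 had a 3′ minus 5′ difference of 3.55 for actin against 0.44 to 0.64 on the others, a measure of RNA integrity and of amplification length. The genes that name the adult population went against their label in part. Lyz2 stood at 14.13, 14.04 and 14.27 in the E18 arrays and at 11.44, 11.28 and 11.13 in the adult arrays, and fell by 2.86 (SE 0.25, adjusted p = 0.00303 by limma). Epcam stood at 10.69, 11.31 and 9.26 in the E18 arrays and at 7.85, 8.50 and 10.68 in the adult arrays, lowest in adult replicates 1 and 2. Pdpn, which names the E18 population, was higher there (11.65, 12.14 and 12.08 against 9.80, 9.38 and 9.88). Muc1, which also names that population, stood at 11.77, 11.94 and 11.10 in the E18 arrays. In the adult arrays Muc1 stood at 7.92, 9.14 and 11.55, so its groups overlapped, and it did not pass (adjusted p = 0.206 by limma). The libraries are therefore called adult and E18 as their labels have it, and what cells the adult samples held was not tested.

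The 10 genes were higher on average in the adult arrays, by log2 differences from 2.02 to 5.49 with a median of 3.91, and the difference was larger in adult replicates 1 and 2 than in adult replicate 3. In replicates 1 and 2 each of the 10 genes was above every E18 array. In adult replicate 3 each of the 10 was lower than in both other adult arrays, in 8 of 10 by over 2-fold, where 7.17% of all genes tested did so. Over all 3 arrays of each group, 8 of the 10 did not overlap between groups, beside 10.1% of 13335 genes tested that were higher in the adult arrays without overlap and 28.9% without overlap in either direction. Since the choice of genes used this contrast, nothing is read from that count. In a bulk sample, fewer cells of a type and less RNA of that type per cell cannot be told apart.

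**Figure D2:**
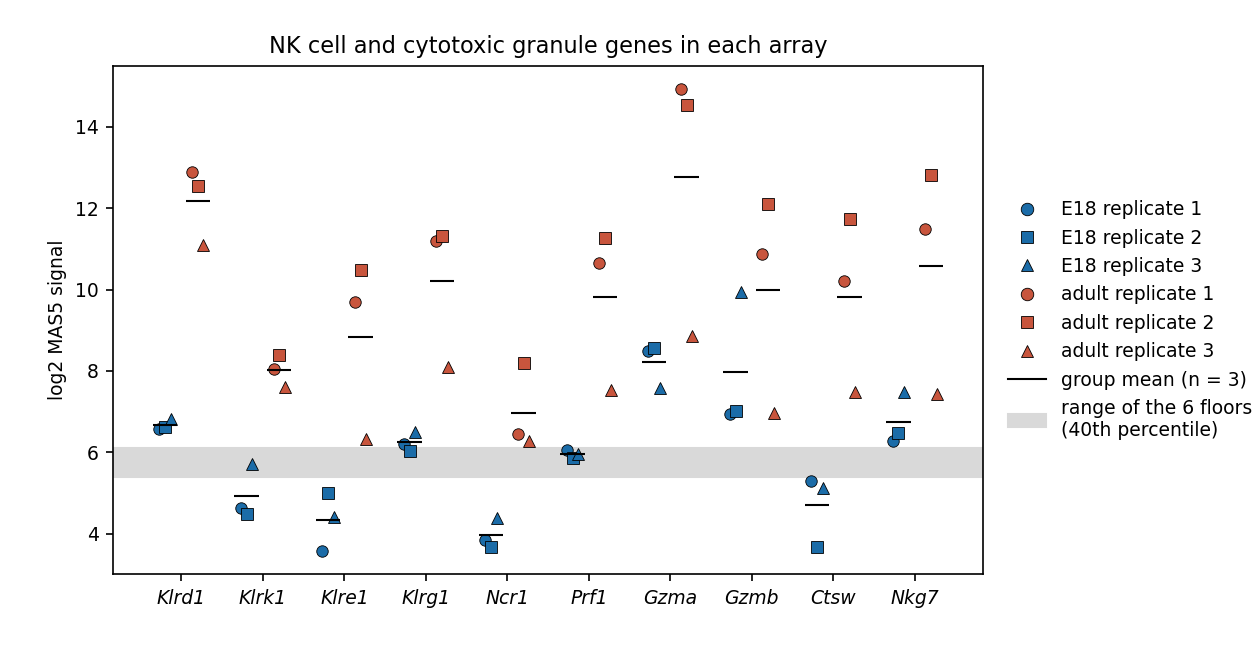
Log2 signal (vertical axis) of each of the 10 genes (horizontal axis) in the 3 E18 and 3 adult arrays, with black lines at the group means (n = 3) and a grey band over the range of the 6 detection floors. Adult replicates 1 and 2 stand above every E18 array for each gene, while adult replicate 3 is the lowest adult array for all 10; levels of different genes cannot be compared.

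The inhibitory and activating lectin-like receptors came first. Klrd1 stood at 6.58, 6.63 and 6.83 in E18 replicates 1, 2 and 3 and at 12.88, 12.54 and 11.10 in adult replicates 1, 2 and 3. The group means were 6.68 ± 0.13 and 12.17 ± 0.95 (SD, n = 3), a 45.1-fold difference. Its groups were well apart, and adult replicate 3 stood far above the E18 arrays too, with an adult minus E18 difference in the third arrays of 4.27 against 6.11 in replicates 1 and 2.

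Klrk1, the NKG2D gene, stood at 4.63, 4.48 and 5.71 in the E18 arrays, all under the floor, and at 8.04, 8.39 and 7.61 in the adult arrays. Set against the floor, it was at least 4.54-fold higher in the adult arrays (8.01 ± 0.39 against a measured 4.94 ± 0.67). It varied least among the adult arrays, and replicate 3 was only 1.52-fold below the mean of the other adult arrays.

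Klre1, an NK receptor gene that pairs with other lectin-like chains, was also under the floor in all E18 arrays, at 3.58, 5.01 and 4.41. It stood at 9.70, 10.49 and 6.32 in the adult arrays, at least 8.03-fold above the floor on average (8.84 ± 2.21). The third adult value was 13.6-fold below the mean of the other adult arrays and just over the floor of its array, 6.05.

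Klrg1 encodes an inhibitory receptor of mature NK cells and effector T cells that binds cadherins on epithelial cells. It stood at 6.21, 6.02 and 6.50 in the E18 arrays and at 11.19, 11.32 and 8.10 in the adult arrays, or 6.25 ± 0.24 against 10.21 ± 1.82 (15.6-fold). The groups did not overlap, but adult replicate 3 was 8.90-fold below the mean of the other adult arrays. Klrg1 is also a gene of type 2 innate lymphoid cells.

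Ncr1, the gene of NKp46, stood at 3.86, 3.68 and 4.38 in the E18 arrays, under the floor in all 3. In the adult arrays it stood at 6.45, 8.20 and 6.28, a mean of 6.98 ± 1.07. The bound was therefore small, at least 2.21-fold higher, and adult replicates 1 and 3 were close to the floor and to each other. Adult replicate 2 was the only array with Ncr1 over 2-fold above its floor.

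Among the granule genes, Prf1 stood at 6.06, 5.87 and 5.97 in the E18 arrays and at 10.65, 11.27 and 7.54 in the adult arrays. The third E18 value was under the floor of its array, 6.10. The means were 5.97 ± 0.10 and 9.82 ± 2.00, a 14.4-fold difference without overlap. Prf1 was the 1 gene with a second probe set, which gave no such difference, with 5.68, 5.54 and 6.08 in E18 and 6.20, 3.59 and 6.55 in adult replicates 1, 2 and 3 (-0.32). That probe set was under the floor on 4 of 6 arrays, and with the mean of both probe sets the difference of Prf1 was 1.76.

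Gzma, the gene of the tryptase-like granzyme A, showed the widest spread among adult arrays. It stood at 8.49, 8.57 and 7.58 in the E18 arrays and at 14.92, 14.54 and 8.85 in the adult arrays. Adult replicate 3 was 58.9-fold below the mean of the other adult arrays and just above E18 replicate 2. The group means of 8.21 ± 0.55 and 12.77 ± 3.40 gave a 23.6-fold difference.

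Gzmb, the gene of granzyme B, which cleaves after aspartate and activates caspases, overlapped between the groups. It stood at 6.93, 7.02 and 9.95 in the E18 arrays and at 10.86, 12.11 and 6.97 in the adult arrays, or 7.96 ± 1.72 against 9.98 ± 2.68 (4.04-fold). The order of the groups turned in the third arrays, where adult minus E18 was -2.98, against 4.51 in replicates 1 and 2. E18 replicate 3 was the high E18 array, as for 3 of the 10 genes by over 2-fold (Klrk1, Gzmb and Nkg7), beside 4.58% of all genes tested. Mast cells also transcribe Gzmb, and the summed signal of 9 mast cell and basophil genes was 24563 in E18 replicate 3 against 7950 and 6633 in the other E18 arrays, and 32463, 19998 and 8215 in adult replicates 1, 2 and 3. The sums in adult replicates 1 and 2 rested mostly on Hdc, at 14.94 and 14.07. Hdc stood at 12.11, 11.93 and 13.31 in the E18 arrays. Cpa3, the mast cell carboxypeptidase, stood at 12.53 in E18 replicate 3 and at 7.31, 7.35 and 6.62 in the adult arrays. Mcpt8, Tpsb2 and Kit were lower in adult replicates 1 and 2 than in each E18 array. Ms4a2 and Cma1 were within the E18 range in adult replicate 2. E18 replicate 3 was also the high E18 array for some other lists, with sums of 75123 against 22681 and 19542 for neutrophil genes. The sums were 3242 against 639 and 672 for plasma cell genes, and 1241 against 1048 and 1097 for T cell genes. The part of mast cells or of other leukocytes in the Gzmb signal was not tested.

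Ctsw, the gene of cathepsin W, a cysteine protease of NK cells and CD8 T cells, stood at 5.29, 3.67 and 5.13 in the E18 arrays, all under the floor. The adult values were 10.21, 11.73 and 7.48, a mean of 9.81 ± 2.15 and at least 15.7-fold higher. Nkg7, a granule membrane protein needed for efficient degranulation, stood at 6.27, 6.46 and 7.49 in the E18 arrays and at 11.49, 12.81 and 7.43 in the adult arrays. Its groups overlapped because E18 replicate 3 and adult replicate 3 were nearly equal, with a difference of -0.06, whereas replicates 1 and 2 differed by 5.79.

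All 10 genes passed the filter, which asked for signals at the floor on at least 3 arrays, but 4 of them (Klrk1, Klre1, Ncr1 and Ctsw) passed through the adult arrays alone. Prf1 was under the floor on 1 E18 array. The other 5 were at or above the floor on all 6 arrays, with differences of 5.49 for Klrd1, 4.56 for Gzma, 3.96 for Klrg1, 3.84 for Nkg7 and 2.02 for Gzmb. Their adult SDs ran from 0.95 to 3.40, against gaps between neighbours that were smaller than the SD of at least 1 of the pair, so no order among them is given.

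In replicates 1 and 2, adult exceeded E18 by over 2-fold for 10 of 10 genes, with differences from 3.55 to 6.49 and a median of 5.46, beside 10.8% of all genes tested. In the third arrays, which are 1 array of each group and allow no test, 8 of 10 exceeded 2-fold, with a range from -2.98 to 4.27 and a median of 1.75, beside 13.8% of all genes. Since the choice of genes used this contrast, both counts are a description. No label names a batch, and the spike-in signals that set the third arrays apart were not tested as a cause. Adult replicate 1, the array with the high actin 3′ minus 5′ difference, was lower than adult replicate 2 for 8 of the 10 genes. Adult replicate 2 minus adult replicate 1 ran from -0.38 (Gzma) to 1.76 (Ncr1) and was over 2-fold for Ncr1, Ctsw, Nkg7 and Gzmb. The part of RNA quality in this was not tested. Without adult replicate 1 the median difference of the 10 genes was 3.45, without adult replicate 2 it was 3.26 and without adult replicate 3 it was 5.21.

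**Figure D3:**
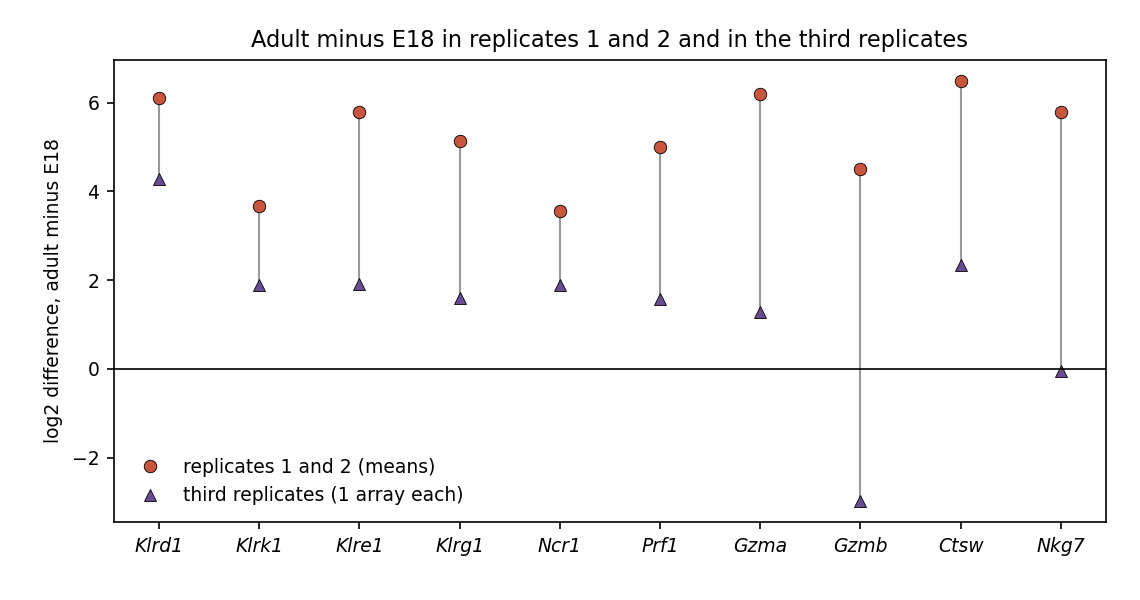
Log2 difference between adult and E18 (vertical axis) for each of the 10 genes, from the means of replicates 1 and 2 (circles) and from the third replicates, 1 array each (triangles). Each circle lies above its triangle, and the triangles of Gzmb (-2.98) and Nkg7 (-0.06) lie under 0.

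Lists of other cell types were read for the same low values in adult replicate 3. The median of adult replicate 3 minus the mean of adult replicates 1 and 2 was -3.45 for the 10 genes, -4.14 for 7 neutrophil genes, -2.80 for 6 B cell genes, -2.28 for 11 T cell genes and -0.98 for 11 genes of all leukocytes. It was 0.31 for 7 plasma cell genes, 1.60 for 8 dendritic cell genes and 2.00 for 10 epithelial and type II cell genes, with 0.24 over all genes tested. It was -1.87 for 7 mast cell and basophil genes, -0.60 for 3 type 2 innate lymphoid genes and 0.21 for 8 macrophage and monocyte genes. The medians of the NK and granule, T cell, B cell, neutrophil, and mast cell and basophil lists were thus all low in adult replicate 3. The summed signal of 11 epithelial and type II cell genes was 42894 and 42661 in adult replicates 1 and 2 and 94062 in replicate 3, and between 69634 and 72008 in the E18 arrays. Single genes differed in this. Cdh1, Krt8, Krt18, Sftpb and Sftpa1 were highest in adult replicate 3 of all 6 arrays, while Epcam, Muc1, Abca3 and Sftpc were higher in another array and Lyz2 was lowest there. Sftpc, the surfactant gene that defines type II cells, was bright throughout, at 13.90 to 14.17 in the E18 arrays and 14.50 to 14.67 in the adult arrays.

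**Figure D4:**
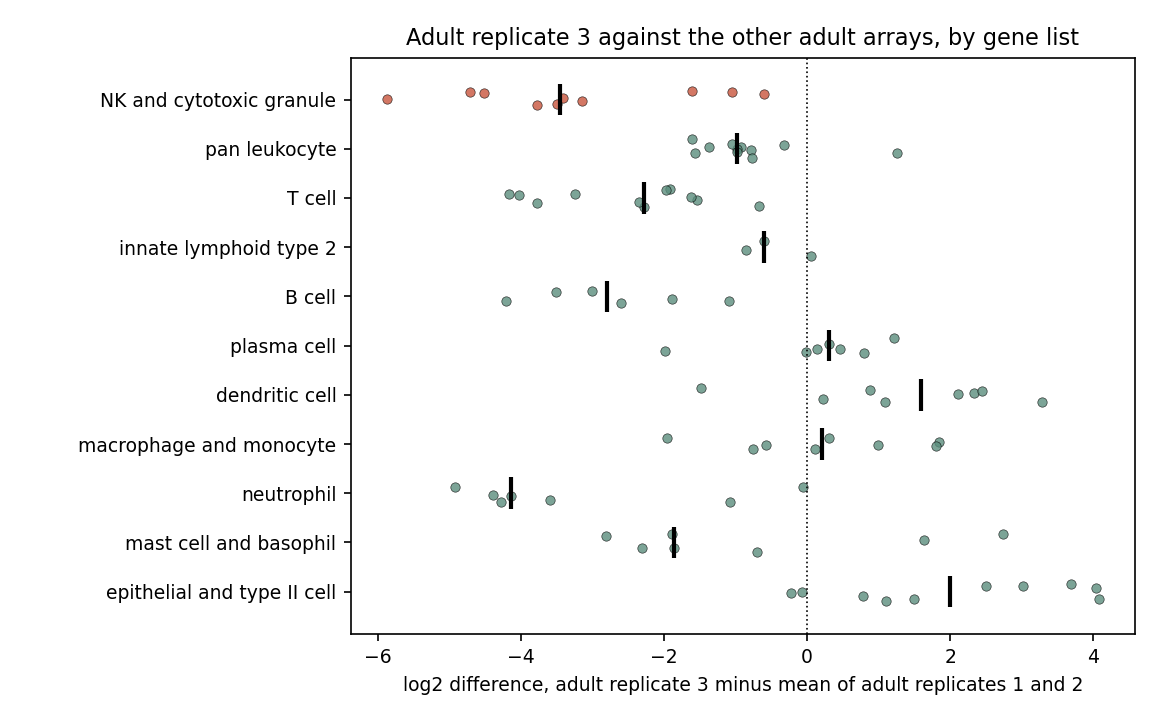
Log2 difference of adult replicate 3 from the mean of adult replicates 1 and 2 (horizontal axis), with 1 point for each gene and a black line at the median of each list. The medians run from -4.14 for neutrophil genes and -3.45 for NK and granule genes to 2.00 for epithelial and type II cell genes.

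T cell genes are given beside the NK genes because cytotoxic T cells use granule genes and several of the receptors. Of 11 T cell genes tested 4 rose by limma at an adjusted p under 0.05, 0 fell and 7 did not pass, with a median difference of 3.28 beside -0.17 over all genes, and 1.41% of all genes tested rose. The T cell list was chosen with earlier results of these data known, so its count is a description. Icos, a T cell costimulator, stood at 14.18, 12.22 and 9.17 in adult replicates 1, 2 and 3. The T cell receptor subunit gene Cd3e, chosen after its values were seen, stood at 4.72, 4.29 and 5.89 in the E18 arrays and at 9.71, 8.30 and 6.73 in the adult arrays. The summed signal of 14 T cell genes was 1048 to 1241 in the E18 arrays and 31842, 16867 and 2770 in adult replicates 1, 2 and 3. How much of the shared granule signal came from T cells was not tested. In the T cell list, Cd8a stood at 8.51, 8.30 and 7.90 in the E18 arrays and at 7.91, 8.85 and 7.71 in the adult arrays and did not pass (adjusted p = 0.929 by limma).

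Other genes of the NK and cytotoxic programme were examined from 4 lists of 98 genes, of which 85 were on the array and 63 were tested. By limma, 13 of the 63 rose in the adult arrays (20.6%, beside 1.41% of all genes), 0 fell (beside 4.57%, and 5.98% in either direction) and 50 did not pass, with a median difference of 0.62. At an unadjusted p under 0.05, 18 were higher and 4 lower, beside 2883 of all 13335 genes tested in either direction. These lists were chosen with earlier results of these data known, so the shares describe them and are no test of the lists. Of the 13, 5 passed the filter through the adult arrays alone (Cd247, Fasl, Gzmk, Ifng and Klrb1a). Raising low signals to the floor left 9 of the 13, without Cd247, Fasl, Gzmk and Ifng. The count of 13 rested on the arrays used. It was 1 without E18 replicate 1, 1 without E18 replicate 2, 7 without E18 replicate 3, 2 without adult replicate 1, 3 without adult replicate 2 and 21 without adult replicate 3.

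Among other receptors and adaptors 4 of 16 rose, 0 fell and 12 did not pass. Klrb1a, an NK1.1 family receptor gene, was at least 5.30-fold higher. Cd247, the zeta signalling chain used by NKp46 and by the T cell receptor, was at least 4.99-fold higher. These bounds take E18 at the floor, while the adjusted p of 0.0174 and 0.0440 by limma used the measured E18 values. In a fit that raised low signals to the floor, Klrb1a passed (adjusted p = 0.0296 by limma) and Cd247 did not (0.0997). Klra17, an Ly49 family gene, rose by 4.62 (SE 0.85, adjusted p = 0.0240), and Slamf7, a receptor of NK cells, plasma cells and other leukocytes, by 3.16 (SE 0.63, adjusted p = 0.0320). Slamf7 was higher in adult replicate 3 (10.47) than in adult replicates 1 and 2 (8.72 and 8.69), unlike the 10 genes. Ly49 and NK1.1 family genes have close relatives, so their probe sets may not be specific to 1 gene. Which cells gave the Klra17 signal was not tested. Signalling adaptors of myeloid cells as well as NK cells, chosen here after their values were seen, did not pass, with Tyrobp at 13.17, 13.53 and 13.53 in the E18 arrays and at 15.10, 14.23 and 12.91 in the adult arrays.

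Of 19 genes of granule cargo and release 3 rose, 0 fell and 16 did not pass. Fasl, the death ligand that killer lymphocytes carry, stood at 4.48, 3.92 and 4.38 in E18 and at 10.99, 10.95 and 6.32 in adult arrays, and rose (adjusted p = 0.0494 by limma), with all E18 values under the floor. Gzmk, a granzyme gene that neighbours Gzma, was at least 4.90-fold higher against the floor. Its adjusted p of 0.0483 by limma used the measured E18 values. In a fit that raised low signals to the floor, neither Fasl (adjusted p = 0.116 by limma) nor Gzmk (0.14) passed. Serpinb9, an inhibitor of granzyme B, rose by 1.46 (SE 0.32, adjusted p = 0.0427) and was bright in the E18 arrays too, at 10.33 ± 0.10. None of the genes for lysosome membrane, movement and fusion passed (Lamp1, Lamp2, Rab27a, Unc13d, Stx11, Stxbp2, Vamp7, Vamp8, Lyst and Ap3b1, grouped after their values were seen), and their differences ran from -0.55 for Lyst to 1.41 for Stx11. Gzmd, Gzme, Gzmf, Gzmg and Gzmn were under the floor on all 6 arrays.

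Of 16 transcription factors and cytokine receptors 2 rose, 0 fell and 14 did not pass. Tbx21, the gene of T-bet, stood at 6.03, 5.31 and 5.71 in the E18 arrays and at 11.71, 11.45 and 8.03 in the adult arrays, a rise of 4.71 (SE 0.93, adjusted p = 0.0297 by limma). Stat4, which relays interleukin 12, rose by 3.93 (SE 0.88, adjusted p = 0.0452), with adult replicate 3 (8.69) between the others (7.61 and 9.29). It stood at 3.69, 3.56 and 6.54 in the E18 arrays. Stat4 and Tbx21 were each under the floor on 2 E18 arrays. With low signals raised to the floor, Stat4 rose by 2.55 (adjusted p = 0.0271 by limma) and Tbx21 by 4.47 (0.0276). Runx3, chosen after its values were seen, had means of 7.29 ± 0.10 in the E18 and 10.55 ± 1.79 in the adult arrays (SD, n = 3; a difference of 3.26, adjusted p = 0.0591 by limma), with adult replicate 3 lowest of the adult arrays at 8.55. Its groups did not overlap and it did not pass.

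Of 12 effector cytokine and homing genes 4 rose, 0 fell and 8 did not pass. Ccl5, a chemokine stored by NK and memory T cells, rose by 7.35 (SE 0.64, adjusted p = 0.00303 by limma) and stood at 14.68, 14.06 and 12.52 in the adult arrays. Ifng, the gene of interferon gamma, was at least 5.15-fold higher against the floor. Its adjusted p of 0.0331 by limma used the measured E18 values, and it did not pass with low signals raised to the floor (adjusted p = 0.108). Itgae, the integrin chain of lymphocytes and dendritic cells that bind E-cadherin, rose by 3.66 (SE 0.82, adjusted p = 0.0459), and the chemokine receptor gene Cxcr3 by 2.89 (SE 0.33, adjusted p = 0.00669). Adult replicate 3 was the highest adult array for Itgae (13.20) and Cxcr3 (10.31). Of the 13 genes that rose, 7 were over 2-fold lower in adult replicate 3 than in both other adult arrays, and Cxcr3, Itgae and Slamf7 were highest there. Under each alternative that left out an array or changed a setting, Ccl5 still passed, and each of the other 12 failed under at least 1. With probe sets averaged, 9 of the 13 still passed. Those that did not were Cd247 (2.20, adjusted p = 0.18 by limma), Fasl (4.01, 0.0568), Serpinb9 (1.21, 0.0649) and Itgae (2.96, 0.131).

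The filter removed 22 of the 85 genes, and 8 of these were at or above the floor in adult replicates 1 and 2 and in no other array. They were Cd27, Cd96, Eomes, Klra5, Klra7, Klrc1, S1pr5 and Sh2d1a, named after their values were seen and not tested. Eomes, the T-box factor of mature NK cells, stood at 5.12, 3.35 and 4.63 in the E18 arrays and at 11.12, 11.14 and 5.46 in the adult arrays. S1pr5, a receptor by which NK cells leave tissues for the blood, stood at 11.50, 10.20 and 5.92 in adult replicates 1, 2 and 3. Klrc1, which encodes the NKG2A partner of CD94, stood at 6.89, 8.23 and 3.42 there. In adult replicate 3 these 3 genes were under the floor while Klrd1 stood at 11.10.

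Ligands for the receptors were few on the array, with 5 of 13 listed genes present under a single symbol and 3 tested. Cdh1, the E-cadherin bound by KLRG1, stood at 12.31, 12.31 and 12.69 in the E18 arrays and at 9.38, 9.47 and 13.51 in the adult arrays, and did not pass (-1.65, adjusted p = 0.397 by limma). Without adult replicate 3 it fell by 3.01 (adjusted p = 0.00157). Its low arrays were those where Klrg1 was high. H60c, a ligand of NKG2D, fell by 1.93 (SE 0.43, adjusted p = 0.0459), and Cdh4, another cadherin, fell by 2.12 (SE 0.44, adjusted p = 0.0338), with the adult values of both under the floor on 2 arrays. Neither call was stable. Each was lost in 5 of the 6 fits that left out 1 array, all but that without adult replicate 3, with adjusted p up to 0.181 for Cdh4 and 0.234 for H60c. With the replicate number as a block the adjusted p was 0.081 for Cdh4 and 0.112 for H60c. With probe sets averaged Cdh4 had a difference of -0.95 (adjusted p = 0.324), and with the 60th percentile filter its adjusted p was 0.0525. The call on H60c was also lost with arrays centred on the median (adjusted p = 0.0503), with no filter (0.0582) and with replicate 3 as a term (0.0532).

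The genes most like the 10 in pattern were found by Pearson's correlation over the 6 arrays with the mean of their centred values, among 4987 genes that ranged over at least 2 log2 units. They were Wfdc18 (r = 0.997), Fcmr (0.994), Trbv1 (0.994), Fasl (0.991), Rasgrp1 (0.991) and Dusp10 (0.990). These coefficients describe 6 arrays in 2 groups and carry no test. Wfdc18, the nearest, stood at 9.33, 9.65 and 7.46 in adult replicates 1, 2 and 3. Fcmr, the IgM receptor gene of lymphocytes, stood at 11.87, 11.94 and 8.02 there. Trbv1, a T cell receptor beta segment, stood at 12.13, 12.09 and 8.53. Which cells gave these signals was not tested. The mean centred value of the 10 genes was 2.69, 3.40 and -0.18 in adult replicates 1, 2 and 3 and -2.16, -2.20 and -1.55 in E18 replicates 1, 2 and 3.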

How the data were processed

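Total RNA of 6 samples was amplified in a pair of cDNA synthesis cycles, labelled with biotin and hybridised to an Affymetrix mouse 3′ array, per the labels' protocols. The authors deposited linear signal intensity per probe set, and the submitters' processing notes name MAS5 and Affymetrix Expression Console. The trimmed mean, leaving out 2% of values at each end, was 500.00 on each array. Here the values were log2 transformed with no pseudocount. Of 45101 probe sets, 64 were controls and 34945 had a single gene symbol. Each of 18193 genes was read from its brightest probe set, and 13335 genes at or above the 40th percentile of their array on at least 3 arrays were tested. Limma 3.58.1 in R 4.3.3 compared the groups, with an intensity trend, two-sided, and Benjamini-Hochberg adjustment over all genes tested. Fitting steps were tested on simulated data. Each p-value sets a group difference against the spread between samples, moderated over all genes tested. Whether a sample pooled animals is not given.

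The 10 genes and all lists were chosen with earlier results of these data known. The named genes were the 10, up to 4 genes per direction and list at an adjusted p under 0.05, or the brightest up to 2 where fewer passed, ligands tested, the 2 brightest markers of each cell type list in adult arrays, of which those that bear on a result are given, and the 6 nearest in pattern. Alternatives covered scaling, pseudocount, filter, probe set, single arrays, replicate number and the third replicates. Same-numbered arrays of the groups were checked for pairing, and their deviations from group means correlated by 0.04, -0.14 and -0.06, so the numbers were not used to pair samples.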

Additional observations from a re-analysis of the deposited data

How the results depend on the processing

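For the 10 genes, all 155 differences under the 16 alternatives run kept adult above E18, the lowest being 0.95 for Gzmb without adult replicate 2. The genes were chosen with this contrast known and the alternatives reuse the same 6 arrays, so the shared direction is no independent support. The third arrays alone were not among the alternatives, and there Gzmb (-2.98) and Nkg7 (-0.06) were lower in the adult array. With single arrays left out their median was 3.26 to 5.21, and it was 5.46 in replicates 1 and 2 only. Of the 10 genes, 8 to 10 did not overlap with single arrays left out, and 7 with arrays centred on the median. The share over all genes tested, 10.1% higher in the adult arrays without overlap, was taken only at the main setting. Fewer arrays make non-overlap easier for any gene, so nothing is read from these counts. The 60th percentile filter tested 5 of the 10, of which 4 did not overlap, and 4 were lowest in adult replicate 3 by over 2-fold. Quantile normalization and centring on medians moved the median of all genes from -0.17 to -0.05 and -0.02.

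For the other NK and cytotoxic genes, 8 rose with the 60th percentile filter, which tests fewer genes, and with single arrays left out 1 to 21 rose and 0 to 1 fell. In replicates 1 and 2 only, 23 rose and 1 fell (Tnfsf10). Over all genes 188 rose and 610 fell, with 24 to 701 and 42 to 2069 when single arrays were left out, and 801 and 2195 in replicates 1 and 2 only. With the replicate number as a block, although the samples share only a number, 7 of the other NK genes rose and 98 genes rose and 394 fell in all. Causes of these shifts were not tested. Not every sample correlated best with its own number. Signals near the floor limit what can be said of Ncr1, Klrk1, Klre1 and Ctsw in E18 arrays.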

Other observations

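All 7 plasma cell genes rose in the adult arrays by limma (beside 1.41% of all genes) with a median of 4.11. The marker lists were chosen with earlier results of these data known, so their counts are a description. Jchain, the joining chain of polymeric antibodies, stood at 14.17, 14.22 and 14.66 in adult replicates 1, 2 and 3 (adjusted p = 0.0118), with no low value in replicate 3. Of 8 dendritic cell genes 3 rose, 0 fell and 5 did not pass. Ccl22, a chemokine of activated dendritic cells, rose by 5.04 (SE 1.04, adjusted p = 0.0341) and was highest in adult replicate 3, at 13.81 against 10.29 and 10.78.

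Of 6 B cell genes 1 rose (Cd22) and of 3 type 2 innate lymphoid genes 1 rose (Il7r), with 0 lower in both lists. None of 11 pan leukocyte, 8 macrophage and monocyte or 7 neutrophil genes passed in either direction by limma. Of them 4, 2 and 2 had an unadjusted p under 0.05, beside 2883 of all 13335 genes tested, so nothing is read from these counts. S100a8, a neutrophil gene, stood at 13.91, 13.69 and 14.83 in the E18 arrays and at 16.01, 14.98 and 11.22 in the adult arrays. Of 7 mast cell and basophil genes 1 fell (Cpa3) and 0 rose.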
